A study of Caenorhabditis elegans with 15 samples.

Results

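The genes examined here encode the core of the SCF (Skp1, cullin, F-box) ubiquitin ligases of *C. elegans*: the Skp1-related adaptors *skr-1*, *skr-2*, *skr-3*, *skr-4* and *skr-5*, the cullins *cul-1* and *cul-6*, the RING subunit *rbx-1*, and the conserved F-box receptors *lin-23* and *sel-10*. They were chosen by name, with earlier results of these data known, and are 10 of the 21882 genes with a count. The study asked what FBXA-215, an F-box protein, does in the worm, and compared messenger RNA of its deletion mutants with that of the wild type. Libraries of polyadenylated RNA were made, without keeping the strand, from whole young adults grown on HB101 bacteria.

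N2 is the reference wild type of worm laboratories. The mutants (strain SX3678) carry *syb4404*, a CRISPR deletion in *fbxa-215*, so the mutant group rests on a single allele, and the deletion removes the gene in every tissue. All animals were hatched at 20 °C and placed on plates as starved larvae. N2 (4 libraries) and mutants (4 libraries) kept at 20 °C were collected 48 h later, and N2 (4 libraries) and mutants (3 libraries) moved to 25 °C were collected about 36 h later. Growth temperature, collection time and growth batch therefore cannot be told apart, and "25 over 20 °C" below stands for all of them together. The study's methods call the replicates biological, but the labels do not say whether they came from separate cultures, so p-values measure only the spread between these libraries, which may be technical in part. Depth ranged from 10842744 to 28391866 counts per library, and the mutant library 4 at 20 °C was the deepest. *fbxa-215* had 1364 to 2297 counts in the N2 libraries and 0 to 2 in the mutant libraries, so the labels hold.

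An SCF ligase is built on a cullin scaffold. The RING protein at one end of the cullin brings in the ubiquitin-loaded E2 enzyme, and a Skp1-related adaptor at the other end holds an exchangeable F-box protein, which picks the substrate. Nematodes have an expanded set of Skp1-related genes and a very large set of F-box genes. In *C. elegans* SKR-1 and SKR-2 work with CUL-1 in cell cycle exit, embryogenesis and the germline. CUL-6 works with SKR-3, SKR-4 and SKR-5 in a ligase known from the response to intracellular pathogens and from tolerance of heat.

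All 10 genes are protein-coding in the annotation of the WBcel235 genome. *skr-2* (chromosome I, 9469654 to 9470637) and *skr-1* (chromosome I, 9471550 to 9472641) are neighbours on the plus strand, 912 bp apart. *skr-3* (16121084 to 16122649), *skr-5* (17347902 to 17348723) and *skr-4* (19924224 to 19925033) are spread along the plus strand of chromosome V, which also holds *rbx-1* (9689686 to 9690522, minus strand) and *sel-10* (13819361 to 13822980, plus strand). *cul-1* lies on chromosome III (10471237 to 10475129, plus strand), *cul-6* on chromosome IV (12586485 to 12590451, minus strand) and *lin-23* on chromosome II (6371303 to 6374776, plus strand). Only *skr-5* overlaps another annotated gene: its last 59 exonic bp are shared with *lsy-27* on the opposite strand, and reads from that stretch cannot be told apart without strand.

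Levels differed widely within the family. In CPM (counts relative to the library total, scaled with TMM factors over the 15 libraries) per kb of merged exons, *skr-1* stood highest in N2 at 20 °C (199 ± 6.19 CPM per kb, SD, n = 4), followed by *rbx-1* (183 ± 11.5 CPM per kb) and *skr-2* (181 ± 24.6 CPM per kb). The libraries of these neighbours in the order overlapped. The next tier held *lin-23* (71.9 ± 6.28 CPM per kb), *sel-10* (67.1 ± 2.90 CPM per kb) and *cul-1* (55.5 ± 2.77 CPM per kb), of which *lin-23* and *sel-10* overlapped. *skr-3* (32.2 ± 1.10 CPM per kb) and *skr-4* (29.4 ± 5.25 CPM per kb) also overlapped each other. *skr-5* (2.75 ± 1.00 CPM per kb) and *cul-6* (1.97 ± 0.35 CPM per kb) lay far below all others and overlapped each other, and the second cullin had the lowest mean per length.

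The upper and lower ends of this order were the same in all 4 groups, with *skr-1*, *rbx-1* and *skr-2* on top and *skr-5* and *cul-6* at the bottom. The middle changed. In N2 at 25 °C *sel-10* (57.0 ± 5.49 CPM per kb), *skr-4* (53.1 ± 2.68), *lin-23* (52.0 ± 3.41), *cul-1* (47.5 ± 2.07) and *skr-3* (42.0 ± 5.94) formed an unbroken series in which each gene overlapped the next. In the mutants at 25 °C (n = 3) *lin-23* (56.1 ± 2.99 CPM per kb), *skr-3* (55.9 ± 2.16), *sel-10* (55.1 ± 1.06) and *skr-4* (53.0 ± 5.05) overlapped in the same way, and *cul-1* (44.4 ± 2.54 CPM per kb) lay below *skr-4* with no overlap. *skr-3* and *skr-4* stood below the F-box genes with no overlap in N2 at 20 °C. At 25 °C *skr-4* overlapped both F-box genes in N2 and *skr-3* overlapped *lin-23*, and in mutants both adaptors overlapped both F-box genes. Exon lengths from the annotation replace the effective lengths of the quantification, which are not used here.

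**Figure D1:**
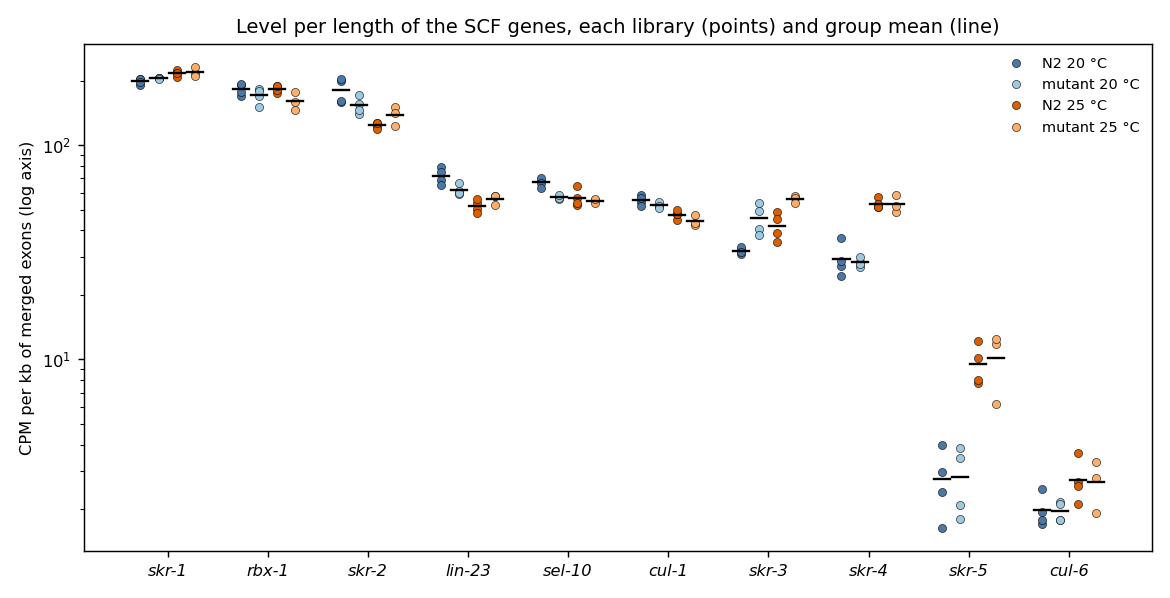
CPM per kb of merged exons (log axis) of the 10 SCF genes in each of the 15 libraries, coloured by strain and temperature, with a line at each group mean. *skr-1* sits at 199 to 220 CPM per kb in the group means, *skr-5* moves from 2.75 and 2.81 at 20 °C to 9.54 and 10.2 at 25 °C, and *cul-6* has the lowest mean in every group.

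The loss of *fbxa-215* moved few of these genes. At 20 °C *skr-3* was higher and *sel-10* lower in mutants than in N2 at a false discovery rate (FDR) under 0.05 (edgeR quasi-likelihood test, Benjamini-Hochberg adjustment over 13127 genes), and the other 8 members did not pass. That is 1 of 10 higher, where 7.71% of all genes tested were higher, and 1 of 10 lower, where 5.77% were lower. By edgeR and DESeq2 alike 0 were past a fold change above 2 as well, a count that 1.49% of all genes reached, and the strains did not overlap for 2 members, against 21.3% of all genes. At 25 °C only *skr-3* passed, higher in mutants (6.97% of the 13510 genes tested were higher and 5.12% lower). Again 0 members were past the fold change of 2 by either tool (1.92% of all genes), and 1 member did not overlap between strains (24.7% of all genes). These counts lie near the background of all genes. At an unadjusted p under 0.05, 4 members passed at 20 °C and 2 at 25 °C. The median absolute log2 fold change of the members was 0.09 at both temperatures, beside 0.20 and 0.19 over all genes tested.

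*skr-3*, one of the adaptors that work with CUL-6, was the only member higher in mutants at both temperatures. At 20 °C it had 25.5, 26.4, 24.4 and 24.9 CPM in N2 and 31.9, 38.8, 30.1 and 42.4 CPM in mutants. At 25 °C it had 27.8, 30.5, 38.1 and 35.4 CPM in N2 and 45.4, 44.3 and 42.0 CPM in mutants. All mutant libraries lay above all N2 libraries of their temperature, with no overlap at either. The log2 fold change was 0.52 at 20 °C (SE 0.11, FDR = 0.0144) and 0.42 at 25 °C (SE 0.11, FDR = 0.0236) in edgeR. At 20 °C the call held without each library in turn. At 25 °C the direction held, with a log2 fold change of 0.34 to 0.49, but the FDR rose to 0.0589 without N2 library 1, 0.0719 without N2 library 2, 0.0888 without mutant library 2 and 0.0666 without mutant library 3.

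The other adaptors of this group did not pass between the strains. *skr-4* had a log2 fold change of -0.03 (SE 0.12) at 20 °C and 0.00 (SE 0.09) at 25 °C, and *skr-5* of 0.09 (SE 0.33) and 0.08 (SE 0.24). For *skr-5*, whose counts were low, the error leaves room for changes much larger than its estimate. *skr-3*, *skr-4* and *skr-5* are related sequences, and the quantification could have split shared reads between them. When their counts were summed, the log2 fold change of mutants over N2 was 0.29 at 20 °C (FDR = 0.0516) and 0.20 at 25 °C (FDR = 0.0732), so the sum did not pass at either temperature.

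*sel-10*, the worm counterpart of the F-box protein Fbw7 and a negative regulator of LIN-12/Notch, was the only member that fell in mutants. At 20 °C it had 170, 175, 166 and 157.8 CPM in N2 and 140, 143, 141 and 146 CPM in mutants. The highest mutant library stayed under the lowest N2 library. The log2 fold change was -0.22 (SE 0.05, FDR = 0.0252, edgeR), from 167 ± 7.22 to 142 ± 2.87 CPM (SD, n = 4 in each). This call was sensitive to the scaling and to single libraries. The FDR was 0.06 with library size alone (-0.19), 0.0563, 0.0752 and 0.0537 without N2 library 1, 2 or 3, and 0.0807, 0.0733 and 0.0508 without mutant library 1, 2 or 3. Without each library in turn the log2 fold change itself stayed between -0.24 and -0.20. At 25 °C the N2 libraries had 142, 131, 134 and 161 CPM and the mutant libraries 138, 134 and 139 CPM, so that the mutants lay inside the range of N2, and the log2 fold change was -0.05 (SE 0.08, FDR = 0.705).

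*lin-23* encodes the counterpart of β-TrCP, an F-box protein that restrains cell division. At 20 °C it had 198, 227, 215.4 and 187 CPM in N2 and 170, 175, 173 and 191 CPM in mutants, and the highest mutant library overlapped the lowest N2 library. Its log2 fold change was -0.21 (SE 0.07), with an FDR of 0.0714 that missed the threshold. DESeq2 (FDR = 0.0465) and 1 edgeR fit over all 15 libraries (FDR = 0.0310) called it lower. Without N2 library 4 the FDR was 0.0331 and without mutant library 4 it was 0.0464. At 25 °C the log2 fold change was 0.11 (SE 0.07, FDR = 0.316).

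*skr-2*, an adaptor of CUL-1, gave a similar set of values. It had 120, 151, 155 and 122 CPM in N2 at 20 °C and 106, 118, 110 and 131 CPM in mutants, overlapping ranges with a log2 fold change of -0.22 (SE 0.10, FDR = 0.150). At 25 °C the log2 fold change was 0.16 (SE 0.08, FDR = 0.187). Its neighbour *skr-1* varied little: group means ran from 172 ± 5.34 to 190 ± 9.08 CPM, and the log2 fold changes between strains were 0.06 (SE 0.05) at 20 °C and 0.02 (SE 0.06) at 25 °C.

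The scaffolds and the RING subunit did not pass between strains. *cul-1* had a log2 fold change of -0.07 (SE 0.06) at 20 °C and -0.10 (SE 0.07) at 25 °C, and *cul-6* of 0.02 (SE 0.17) and -0.03 (SE 0.22). *rbx-1*, which recruits the E2 enzyme, had -0.09 (SE 0.08) and -0.19 (SE 0.08, FDR = 0.109). At 25 °C the mutant library 1 weighed on the result: without it *rbx-1* fell (log2 fold change -0.27, FDR = 0.00996) and *skr-2* rose (0.24, FDR = 0.0184), while the number of genes called among all tested went from 1634 to 3518.

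**Figure D2:**
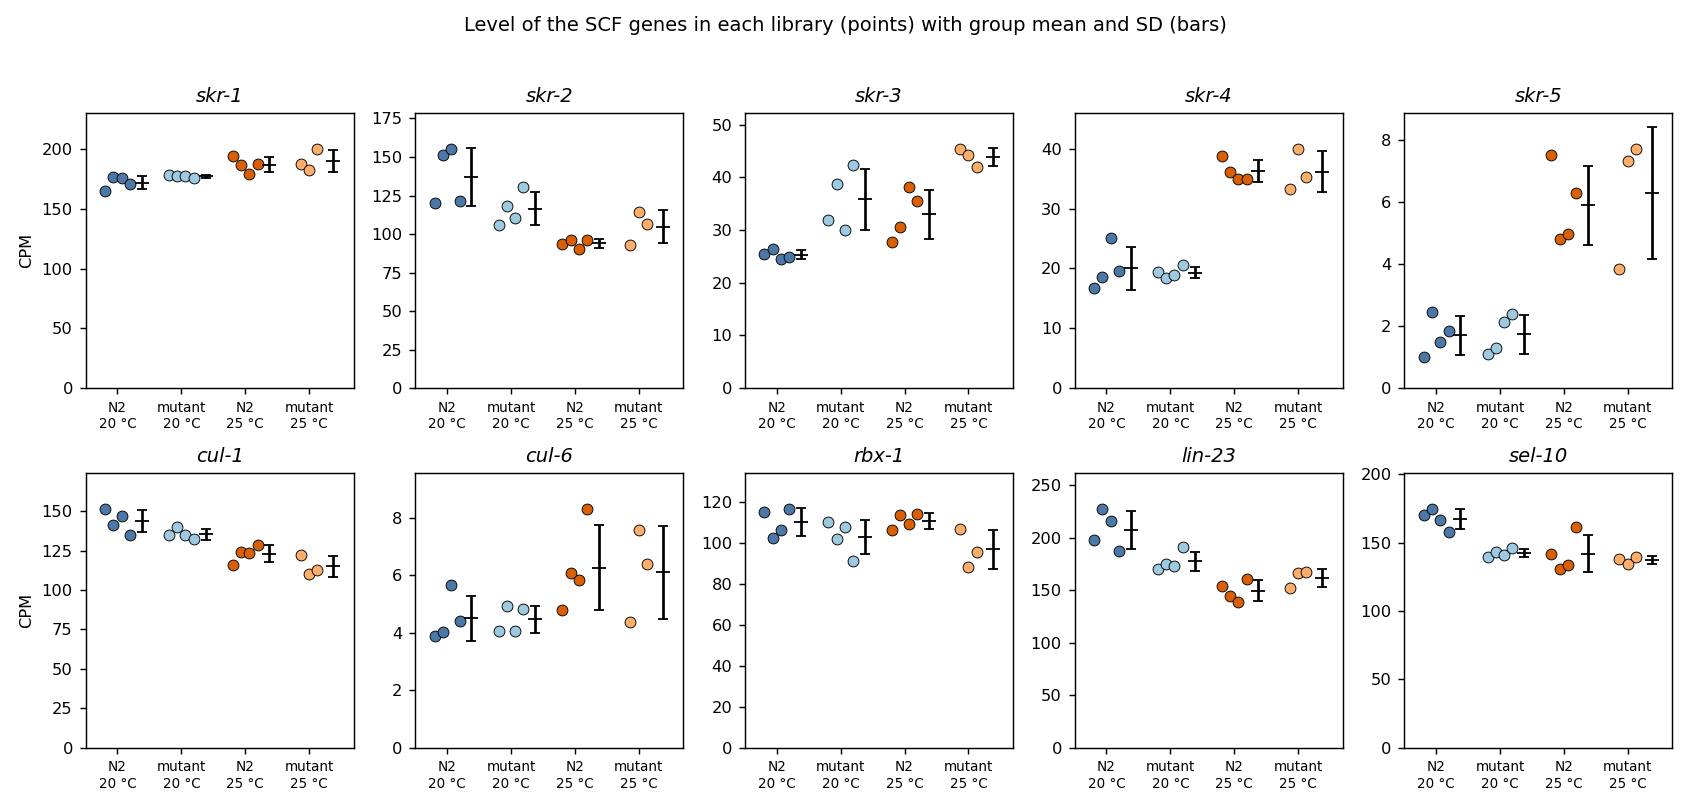
CPM of each of the 10 SCF genes in every library (points) for N2 and *fbxa-215* mutants at 20 and 25 °C, with group mean and SD to the right of the points, on axes that start at 0. *skr-3* shows higher mutant points at both temperatures, *skr-4* and *skr-5* rise at 25 °C in both strains, and *skr-2*, *lin-23* and *sel-10* are highest in N2 at 20 °C.

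The markers of the germline moved with some of these values. The summed level of 8 oocyte and eggshell genes (*oma-1*, *oma-2*, *rme-2*, *puf-5*, *cpg-1*, *cpg-2*, *egg-1*, *egg-2*) was 4281 to 5143 CPM in N2 at 20 °C, 3345 to 3509 CPM in mutants at 20 °C, 2954 to 3604 CPM in N2 at 25 °C and 2761 to 3009 CPM in mutants at 25 °C. All 8 were lower in mutants at 20 °C, and 2 of 8 at 25 °C. At 20 °C *sel-10* fell too, and the log2 fold changes of *lin-23* and *skr-2* were negative without passing. Of 6 neuronal genes 2 were higher in mutants at 20 °C and 4 at 25 °C, with sums of 251 to 300 and 264 to 312 CPM at 20 °C and 276 to 287 and 305 to 357 CPM at 25 °C in N2 and mutants. The part of these tissues in the results was not tested. In RNA of whole animals fewer cells of a type and less RNA per cell cannot be told apart. Of 7 sperm genes tested 1 was higher in mutants at 20 °C and 2 were lower at 25 °C, with sums of 507 to 561 and 550 to 584 CPM at 20 °C and 587 to 676 and 541 to 571 CPM at 25 °C in N2 and mutants. By edgeR none of the larval moult genes tested passed between strains. Their median log2 fold change was 0.002 at 20 °C and 0.49 at 25 °C, beside 0.015 and 0.004 over all genes tested. Of 6 body wall muscle genes 0 and 2 were higher in mutants at 20 and 25 °C, and of 8 genes of the intestine and yolk 2 and 3 were higher and 1 and 1 lower. Among the latter *elt-2* and *ifb-2*, like *skr-3*, were higher at both temperatures, whereas *vit-3* was lower at 20 °C and *ges-1* at 25 °C. Over all genes tested 7.71% were higher and 5.77% lower in mutants at 20 °C, and 6.97% and 5.12% at 25 °C. Of the 8 zygotic genes of the early embryo *med-1* was at 0 in every library, and all others but nhr-23 had at most 7 counts in any library and were not tested.

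At 25 over 20 °C more of the members were called than between strains, and so were more of all genes tested. In N2, 3 of the 10 rose (*skr-3*, *skr-4* and *skr-5*), against 23% of the 14000 genes tested, and 4 fell (*skr-2*, *cul-1*, *lin-23* and *sel-10*), against 22.1% of all genes. Only *skr-5* was also past a fold change of 2 (6.59% of all genes), and the temperatures did not overlap for 7 members, against 40.5% of all genes. In the mutants 2 members rose (*skr-4* and *skr-5*), with 13.6% of all genes higher, and 1 fell (*cul-1*), with 11.9% of all genes lower. Again *skr-5* alone was past a fold change of 2 (3.17% of all genes), and 6 members did not overlap (31.6% of all genes). The counts of rises in both strains and of falls in mutants lie near the shares over all genes. The median absolute log2 fold change of the members was 0.42 in N2, beside 0.32 for all genes, and 0.19 in mutants, beside 0.25. The balance of calls over all genes depended on the scaling: 51% of the called genes were higher in N2 and 53.3% in mutants, but 62.6% and 65.5% when counts were scaled by library size alone and 46.8% and 46.5% with relative log expression factors, with a shift of the median gene of at most 0.07 on the log2 scale.

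*skr-5* showed the largest change. It had 1.01, 2.47, 1.48 and 1.85 CPM in N2 at 20 °C and 7.54, 4.82, 4.96 and 6.29 CPM at 25 °C. In the mutants it had 1.12, 1.29, 2.15 and 2.40 CPM at 20 °C and 3.85, 7.34 and 7.72 CPM at 25 °C. The temperatures did not overlap in either strain. The log2 fold change was 1.81 in N2 (SE 0.30, FDR = 0.000122) and 1.80 in mutants (SE 0.30, FDR = 0.000332). These are 3.50-fold and 3.49-fold rises that rest on 14 to 70 counts per library at 20 °C and 44 to 124 at 25 °C. *lsy-27*, which shares 59 bp with it, went the other way, from 12.9 to 6.74 CPM in N2 and from 8.96 to 5.08 CPM in mutants.

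*skr-4* rose 1.81-fold in N2 and 1.87-fold in mutants. It had 16.8, 18.6, 25.1 and 19.6 CPM in N2 at 20 °C and 38.8, 36.1, 34.9 and 35.0 CPM at 25 °C. In mutants it had 19.4, 18.4, 18.9 and 20.5 CPM at 20 °C and 33.2, 39.9 and 35.2 CPM at 25 °C. The lowest library at 25 °C was well above the highest at 20 °C in both strains, with log2 fold changes of 0.86 (SE 0.11, FDR = 6.19e-06) and 0.90 (SE 0.11, FDR = 1.77e-05) in edgeR. Both calls, like those of *skr-5*, held without each library in turn.

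For *skr-3*, whose values are given above, the log2 fold change of 25 over 20 °C was 0.38 in N2 (SE 0.11, FDR = 0.0100) and 0.29 in mutants (SE 0.12, FDR = 0.0740), the latter past the threshold without mutant library 4 at 20 °C (FDR = 0.0174) or with library size alone (0.34, FDR = 0.0491). The mutant ranges overlapped slightly, 30.1 to 42.4 CPM at 20 °C and 42.0 to 45.4 CPM at 25 °C. The summed level of *skr-3*, *skr-4* and *skr-5* was 47.0 ± 3.19 CPM in N2 and 56.8 ± 6.52 CPM in mutants at 20 °C, and 75.1 ± 2.91 and 86.3 ± 4.72 CPM at 25 °C. *skr-3* made up 54.1% of this sum in N2 and 62.7% in mutants at 20 °C, but 43.8% and 50.96% at 25 °C, where *skr-4* and *skr-5* took a larger share.

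*cul-6*, the scaffold these adaptors serve, was scarce and did not pass. It had 3.90, 4.04, 5.65 and 4.42 CPM in N2 at 20 °C and 4.81, 6.09, 5.83 and 8.32 CPM at 25 °C. In mutants it had 4.07, 4.92, 4.07 and 4.83 CPM at 20 °C and 4.37, 7.57 and 6.38 CPM at 25 °C. The groups overlapped in both strains. The log2 fold change was 0.48 in N2 (SE 0.20, FDR = 0.0548) and 0.45 in mutants (SE 0.21, FDR = 0.124). In N2 the FDR was 0.0268, 0.0270 and 0.0366 without N2 library 3 at 20 °C, N2 library 1 at 25 °C or mutant library 1 at 25 °C, and without the last of these it was 0.0409 in mutants. With library size alone the N2 value was 0.55 (FDR = 0.0314). The gene had 49 to 141 counts per library.

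**Figure D3:**
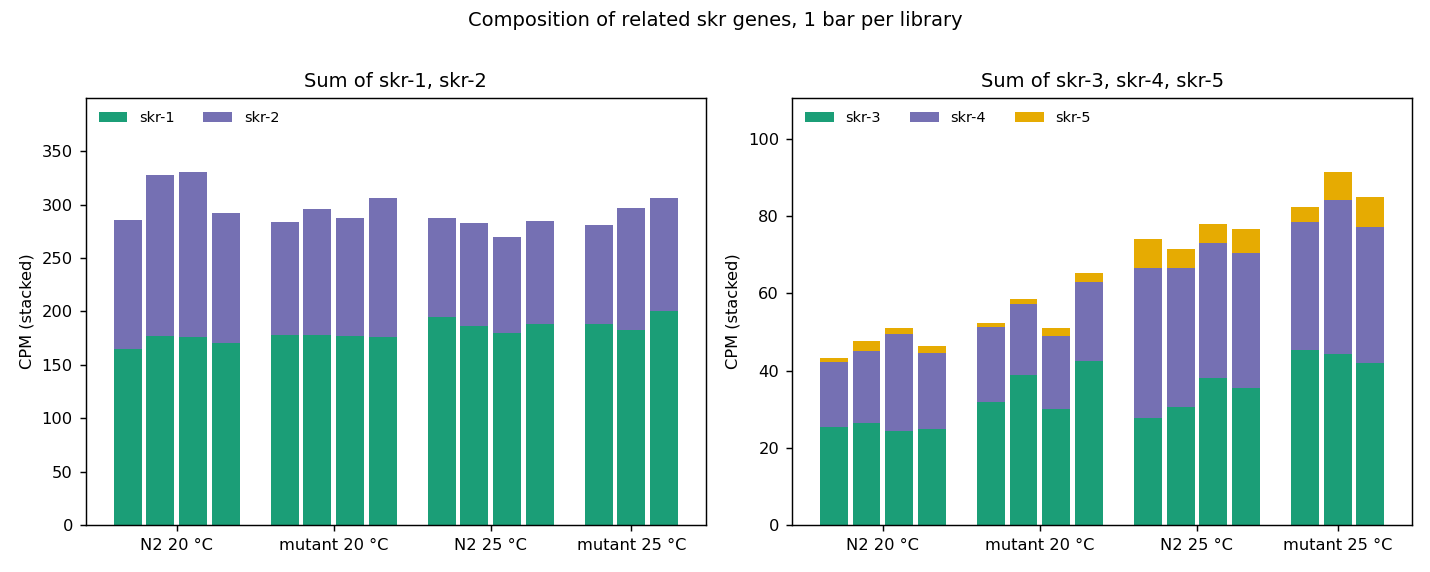
Stacked CPM of *skr-1* and *skr-2* (left) and of *skr-3*, *skr-4* and *skr-5* (right), with 1 bar for each library in the order of the replicates, grouped by strain and temperature. The sum on the left stays near 281 to 309 CPM in the group means while the *skr-1* share grows from 55.8% to 66.6% in N2, and the sum on the right grows from 47.0 to 75.1 CPM in N2 and from 56.8 to 86.3 CPM in mutants.

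*skr-1* and *skr-2* parted between the temperatures. *skr-2* fell in N2 from 120, 151, 155 and 122 CPM to 93.3, 96.0, 90.1 and 96.4 CPM, with no overlap and a log2 fold change of -0.54 (SE 0.09, FDR = 0.000125). In mutants it went from 106 to 131 CPM at 20 °C to 93.1, 114 and 107 CPM, overlapping ranges with a log2 fold change of -0.15 (SE 0.10, FDR = 0.262). *skr-1* had 165, 177, 176 and 171 CPM in N2 at 20 °C and 194, 187, 179 and 188 CPM at 25 °C. These did not overlap, but the log2 fold change of 0.12 (SE 0.05) missed the threshold (FDR = 0.0574). It passed with library size alone (0.19, FDR = 0.00481), with at least 10 counts required in every library (FDR = 0.0437), and without N2 library 3 at 20 °C (FDR = 0.0491) or N2 library 3 at 25 °C (FDR = 0.0402). In mutants *skr-1* had 176 to 178 CPM at 20 °C and 188, 182 and 200 CPM at 25 °C, with no overlap and a log2 fold change of 0.10 (SE 0.05, FDR = 0.179) that passed only with library size alone (0.16, FDR = 0.0374). Both genes are neighbours of related sequence, so shared reads could have been split unevenly between them. Their sum went from 309 ± 23.7 to 281 ± 7.998 CPM in N2, a log2 fold change of -0.16 (FDR = 0.0338), and the *skr-1* share from 55.8% (53.1% to 58.4%) to 66.6% (66.0% to 67.6%). In mutants the share was 60.4% (57.4% to 62.7%) at 20 °C and 64.5% (61.4% to 66.9%) at 25 °C.

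*cul-1*, the scaffold of the main SCF ligase, fell in both strains. It had 152, 141, 147 and 135 CPM in N2 at 20 °C and 116, 124, 124 and 129 CPM at 25 °C. In mutants it had 135, 140, 135 and 132 CPM at 20 °C and 122, 110 and 113 CPM at 25 °C. The temperatures did not overlap in either strain, and the log2 fold changes were -0.23 (SE 0.06, FDR = 0.00372) and -0.24 (SE 0.06, FDR = 0.00917). In mutants the FDR was 0.0546 without mutant library 2 at 25 °C. The RING subunit *rbx-1* did not pass, with log2 fold changes of 0.01 (SE 0.07) in N2 and -0.09 (SE 0.08) in mutants and group means of 96.7 to 111 CPM.

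Both F-box genes fell in N2. *lin-23* went from 198, 227, 215.4 and 187 CPM at 20 °C to 154, 145, 139 and 161 CPM at 25 °C, with no overlap and a log2 fold change of -0.47 (SE 0.07, FDR = 4.04e-05). In mutants its 25 °C libraries had 152, 166 and 167 CPM, all below the lowest of 170 CPM at 20 °C, and the log2 fold change was -0.14 (SE 0.07, FDR = 0.193). *sel-10* fell in N2 by 0.24 on the log2 scale (SE 0.06, FDR = 0.00522), with 1 library at 25 °C (161 CPM) inside the range at 20 °C (157.8 to 175 CPM), and in mutants the log2 fold change was -0.05 (SE 0.07, FDR = 0.603). All 8 oocyte and eggshell genes named above also fell in N2 at 25 over 20 °C, and 5 of 8 in mutants, while 6 of 7 sperm genes tested rose in N2 and 1 of 7 in mutants. Of 6 body wall muscle genes 2 rose in N2 and 4 in mutants, and of 6 neuronal genes 2 and 4. Of 8 intestine and yolk genes 3 rose and 2 fell in N2, and 2 rose and 1 fell in mutants. Of 8 larval moult genes 1 rose in each strain. Over all genes tested 23% rose and 22.1% fell in N2, and 13.6% and 11.9% in mutants. The part of these tissues in the changes at 25 over 20 °C was not tested.

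**Figure D4:**
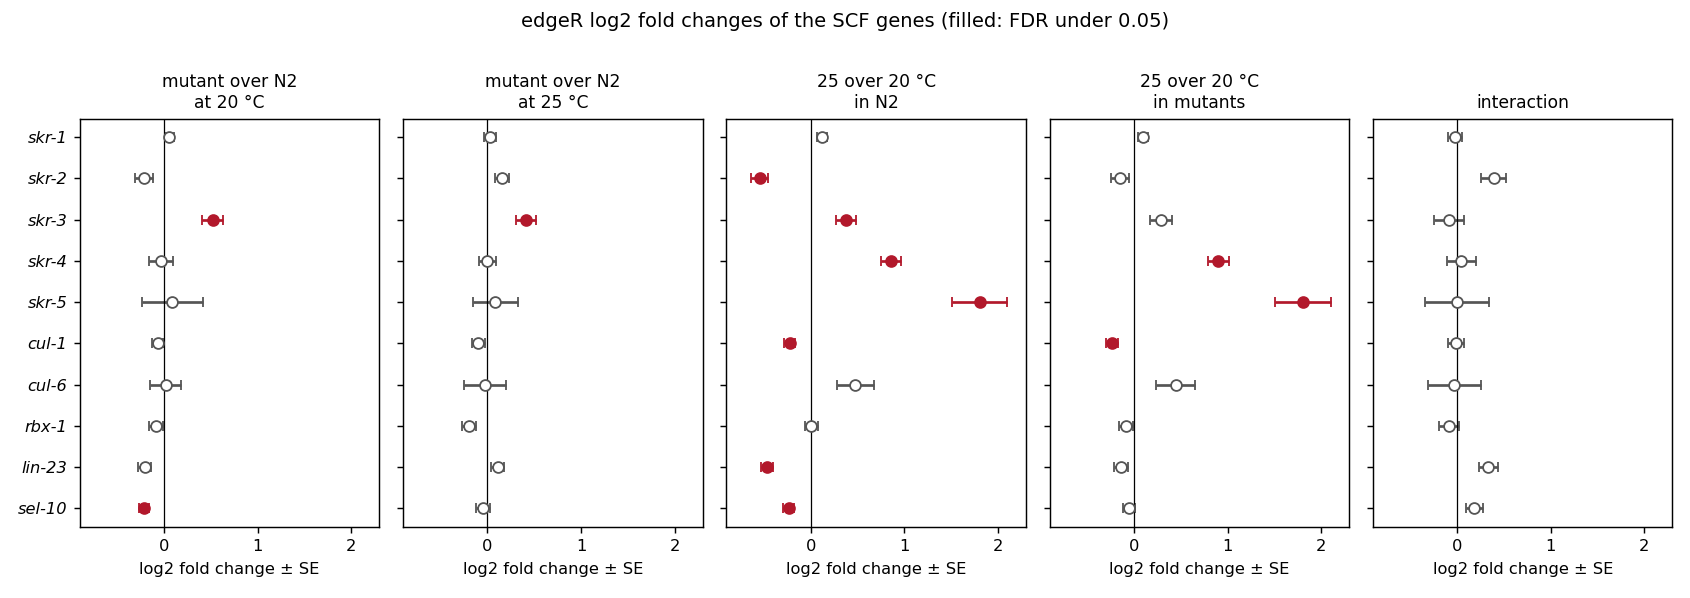
Log2 fold change with its SE (bars) for the 10 SCF genes in the 5 comparisons, from the edgeR fits, with filled red points where the FDR was under 0.05. The strain comparisons hold 2 and 1 filled points, N2 at 25 over 20 °C holds 7, the mutants hold 3, and the interaction holds 0.

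Whether temperature acted differently in the strains was tested as the interaction in 1 fit over the 15 libraries. By edgeR 0 of 10 members passed, where 0.743% of 14000 genes had a higher and 0.721% a lower change in mutants and 0.307% were also past a fold change of 2. At an unadjusted p under 0.05 there were 2 members, *skr-2* (0.39 on the log2 scale, SE 0.13, FDR = 0.0976) and *lin-23* (0.33, SE 0.10, FDR = 0.0755), and DESeq2 called 1, *lin-23* (FDR = 0.0452). The falls of *skr-2* and *lin-23*, called in N2 and not in mutants, were therefore not shown to differ between the strains in the edgeR fit. Leaving out libraries moved these calls: the FDR of *lin-23* was 0.0455 without N2 library 4 at 20 °C, 0.0257 without mutant library 4 at 20 °C and 0.0450 without mutant library 1 at 25 °C, and that of *skr-2* was 0.0295 and 0.0429 without the same mutant libraries. For *skr-4* and *skr-5* the interaction was 0.04 (SE 0.15) and 0.00 (SE 0.34).

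The profile of each member over the 15 libraries was set against those of the others as the root mean square difference of log2(CPM + 1), each gene centred on its own mean. *skr-2* and *lin-23* were the closest pair of members (0.07), and *cul-1* and *sel-10* the next (0.10). The root mean square spread of each gene around its own mean was 0.23 for *skr-2* and 0.19 for *lin-23*. For *cul-1* and *sel-10* it was only 0.13 each, so their nearness also reflects that both varied little. Over all 13999 other genes, the profiles nearest to *cul-6* were those of C45B11.2 (0.14, at a mean of 0.65 CPM, below the added 1), Y47G6A.3 (0.15) and *tsct-1* (0.15), with a median of 0.36 over all genes. For *skr-3* they were *del-6* (0.11), *pmt-1* (0.12) and *ifc-2* (0.12), with a median of 0.37. For *skr-4* they were T21H3.1 (0.13), *ttr-48* (0.14) and F08H9.2 (0.14), with a median of 0.48. For *skr-5* the nearest named genes were *acs-7* (0.26) and *lipl-2* (0.29), with a median of 0.76. These lie farther away than for *cul-6*, *skr-3* and *skr-4*, but *skr-5* itself varied more. Its own root mean square spread was 0.75, beside 0.28 for *cul-6*, 0.30 for *skr-3* and 0.44 for *skr-4*. The libraries share 4 groups, so these are descriptions with no test.

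Of 49 other genes of the ubiquitin pathway tested, 28 were called at 25 over 20 °C in N2 and 16 in mutants, while 2 were called between strains at 20 °C and 4 of 46 at 25 °C. Calls over all genes differed in the same way, with 23% higher and 22.1% lower in N2, 13.6% and 11.9% in mutants, 7.71% and 5.77% between strains at 20 °C and 6.97% and 5.12% at 25 °C. Between strains at 20 °C 2 of 7 E1, E2 and ubiquitin genes fell: *uba-1*, the E1 enzyme that activates ubiquitin (-0.23, SE 0.06, FDR = 0.0281), and *ubq-1*, the polyubiquitin gene (-0.36, SE 0.08, FDR = 0.0139). *uba-1* had 732, 741, 703 and 688 CPM in N2 and 594, 619, 628 and 572 CPM in mutants, with no overlap. None of the other 11 Skp1-related genes tested, of 8 genes of other cullin complexes or of 12 genes of neddylation and cullin exchange passed. The same held for 8 other F-box genes and 3 CUL-6 partners and regulators. Over all 49 listed genes tested, 10 had an unadjusted p under 0.05 and DESeq2 called 5, beside 2 by edgeR. At 25 °C the lists held 4 calls. *mfb-1*, an F-box gene, rose (0.58, SE 0.15, FDR = 0.0266), *ftr-1* (-0.61, SE 0.16, FDR = 0.0255) and *fsn-1*, an F-box gene of synapse development (-0.27, SE 0.08, FDR = 0.0468), fell, and *rcs-1*, the RING partner of CUL-6, rose (0.49, SE 0.14, FDR = 0.0350).

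*rcs-1*, like *skr-3*, serves CUL-6. It had 13.7, 10.9, 16.9 and 14.4 CPM in N2 at 25 °C and 19.7, 20.1 and 19.1 CPM in mutants, with no overlap. At 20 °C it had 10.8, 12.3, 10.7 and 11.1 CPM in N2 and 10.1, 13.5, 8.76 and 15.6 CPM in mutants, overlapping ranges. At 25 over 20 °C *rcs-1* rose in mutants (0.70, SE 0.17, FDR = 0.00510), and in N2 the log2 fold change was 0.32 (SE 0.16, FDR = 0.115). The F-box partners *fbxa-75* and *fbxa-158*, and *pals-5*, a reporter gene of the pathogen response, had at most 8 counts in any library and were not tested. *pals-22* and *pals-25*, which regulate that response, did not pass in any comparison.

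At 25 over 20 °C in N2, 10 of the 12 genes for neddylation, the COP9 signalosome and cullin exchange fell and 0 rose, where 22.1% of all genes tested were lower and 23% higher, with a median log2 fold change of -0.29 beside 0.07 for all genes. These genes attach NEDD8 to cullins, remove it, or exchange the adaptors. The falls were small: *csn-4*, a signalosome subunit, fell by 0.47 (SE 0.07, FDR = 2.66e-05), *cand-1*, the cullin exchange factor, by 0.46 (SE 0.07, FDR = 4.65e-05), *dcn-1*, which promotes neddylation, by 0.39 (SE 0.09, FDR = 0.00140) and *csn-5*, the catalytic subunit of the signalosome, by 0.32 (SE 0.08, FDR = 0.00412), all on the log2 scale. *cand-1* had 265, 238, 223 and 214 CPM in N2 at 20 °C and 162, 171, 170 and 183 CPM at 25 °C, with no overlap. In mutants 6 of 12 fell and 0 rose, where 11.9% of all genes were lower and 13.6% higher, with a median of -0.20 beside 0.04.

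At 25 over 20 °C in N2, 6 of the 11 other Skp1-related genes tested fell and 1 rose. Among the falls were *skr-14* (-1.82), *skr-7* (-1.58), *skr-12* (-1.55) and *skr-10* (-1.41 on the log2 scale). The rise was that of *skr-19* (0.36, SE 0.08, FDR = 0.00120). The falls of *skr-14*, *skr-7*, *skr-12* and *skr-10* were larger than those of any of the 10 SCF genes. They rest on low levels of related copies, between which reads could have been split. *skr-7* had 5.63, 6.10, 4.07 and 3.46 CPM in N2 at 20 °C and 1.34, 1.45, 1.83 and 1.87 CPM at 25 °C. The remaining falls, of *skr-17* (-0.52) and *skr-18* (-0.36), were smaller than that of *skr-2* (-0.54). Their levels were higher, with N2 means of 37.9 and 63.6 CPM at 20 °C and 26.4 and 49.5 CPM at 25 °C. *skr-6*, *skr-8*, *skr-9* and *skr-13* were not tested, *skr-6* with 0 counts in every library, and *skr-11* was not analysed here. Over all genes in N2 22.1% were lower and 23% higher. Of the other cullin complexes 3 of 8 fell and 0 rose, and of the E1, E2 and ubiquitin genes 5 of 7 fell and 0 rose. Of the other F-box genes 2 of 8 fell and 1 rose, and of the CUL-6 partners 0 of 3 passed. In mutants the falls were 3 of 11, 2 of 8, 2 of 7, 0 of 8 and 0 of 3, and the rises 0, 0, 0, 2 and 1, against 11.9% lower and 13.6% higher over all genes. Several of these counts, such as 2 of 8, lie near that background. The interaction had 0 calls among these 49 genes by edgeR, 12 with an unadjusted p under 0.05 and 3 calls by DESeq2.

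**Figure D5:**
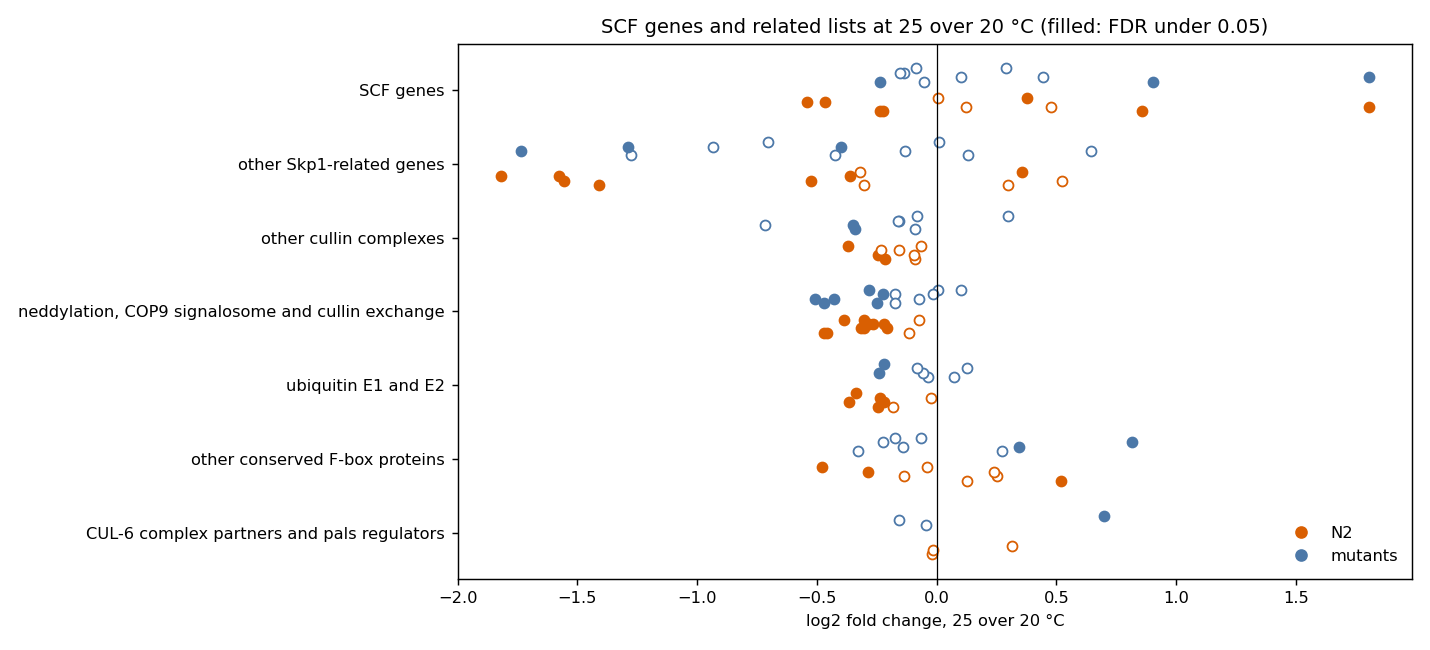
Log2 fold change of 25 over 20 °C for each tested gene of the SCF group and of 6 related lists, in N2 (orange) and mutants (blue), with filled points where the FDR was under 0.05. The SCF genes spread from -0.54 to 1.81 in N2, whereas the 10 called genes for neddylation, the COP9 signalosome and cullin exchange all lie below 0.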

How the data were processed

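Strain, temperature and replicate of the 15 young adult libraries came from the submitters' sample titles, and 0 columns were left unassigned. Per the labels, the authors trimmed reads with Trimmomatic (version 0.39), quantified transcripts with Salmon (version 1.5.1) and named WBcel235 as genome. The transcriptome release is not given in the sources used here. The deposited tables hold estimated counts per gene without normalization, of which 91.06% are whole numbers. They were rounded. The authors also deposited DESeq2 tables with a mean normalized signal, log2 fold changes and log2 expression values, and adjusted p-values. Only gene symbols were taken from these.

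The tests were run in R (version 4.3.3) with edgeR (version 4.0.16), using TMM factors, genes kept by filterByExpr (minimum count 10, total 15), robust quasi-likelihood F-tests and Benjamini-Hochberg adjustment over all genes tested, within each temperature for the strains and in 1 fit over the 15 libraries otherwise. A gene was called at an FDR under 0.05 and counted again with a fold change above 2. The SE of a log2 fold change was derived from its F statistic and is approximate. The fits were tested on simulated data with planted changes larger than any seen in the 10 genes. Only calls also past the fold change of 2 were counted there, so smaller changes were not covered. The genes, the related lists and the markers were chosen with earlier results of these data known. All 10 genes are reported, and listed genes are named only past the FDR, the largest changes first, or as not tested. The nearest profiles were searched for *cul-6*, *skr-3*, *skr-4* and *skr-5*. For *skr-5* a neighbour without a symbol is not named. Alternatives were other scalings, DESeq2 (version 1.42.0), other filters, other sets of samples, the replicate number as a block, summed counts of related skr genes, another exon length and leaving out each library. No library pair of a group differed by as little as sampling noise. Depth was 10842744 to 28391866 counts, and intervals were not derived from it. Sequences are not shown here.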

Additional observations from a re-analysis of the deposited data

How the results depend on the processing

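Of the 10 genes, 2 passed between strains at 20 °C, 1 with counts scaled by library size alone (*skr-3*), 3 with DESeq2 and in 1 fit over 15 libraries (*skr-3*, *lin-23* and *sel-10*) and 1 to 3 when a library was left out. At 25 °C 1 passed, and 0 to 3 when a library was left out. For 25 over 20 °C 7 passed in N2, 9 with library size alone, 8 with at least 10 counts in every library and 7 to 9 without a library. In mutants 3 passed, 5 with library size alone and 2 to 4 without a library. The interaction had 0 calls, 1 with DESeq2 and 0 to 2 without a library. Over all genes, 1769 passed between strains at 20 °C and 2746 in 1 fit over 15 libraries, and DESeq2 called 1013 for the interaction, edgeR 205. At 20 °C 57.2% of the called genes were higher, and 68.7% with library size alone.

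The replicate numbers did not pair the libraries: deviations of libraries with the same number correlated at 0.21, -0.30, -0.09 and -0.24 at 20 °C and at -0.20, -0.12 and -0.08 at 25 °C. With the replicate block the members called were 1 (*skr-3*), 0, 2 (*skr-4* and *skr-5*), 2 (the same) and 0 in the 5 comparisons, and the genes called fell from 1769 to 528 and from 1634 to 391 between strains, from 6310 to 1135 in N2, from 3573 to 319 in mutants and from 205 to 3 for the interaction. In the block fit the 25 over 20 °C contrasts compare the fitted level of replicate 1 at each temperature, not the group averages. Their SE grew with this coding, from 0.06 to 0.11 for *cul-1* in N2. The drops at 25 over 20 °C therefore cannot be read as the effect of blocking alone.

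Summing *skr-1* and *skr-2* turned the direction for *skr-1* at 25 over 20 °C in N2, to -0.16 from 0.12, by construction, since the sum follows the fall of *skr-2*. Against the longest transcript *sel-10* had 70.6, 60.1 and 57.9 CPM per kb in N2 at 20 °C and in mutants at 20 and 25 °C. Of the log2 fold changes without a library 573 stayed on their side of the threshold, 16 passed it and 11 lost it. Under the other settings 344 stayed, 9 passed, 11 lost it and 1 turned. Losses under the replicate block at 25 over 20 °C carry the limit of that coding given above. The sign changed without a call in 42 and 23 more, at sizes of up to 0.26 and 0.29 on the log2 scale. Low counts limit *skr-5* and *cul-6*.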
